A study of Mus musculus with 12 samples.

Results

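The genes described here are 30 mouse genes of fat cells and of lipid storage, chosen by name: every probe that was not a control and whose accession belonged to one of the 30 gene symbols was taken, on all 12 arrays of the series. All 30 had a probe (39 probes on 75 of the 43020 spots that were not controls), and 29 entered the tests among 25085 features. Fabp4 was left out of the fits because its spot carried an outlier flag on the Eng+/- 90 d array.

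RNA of 12 samples was hybridised in Cy5 against a Cy3 pool of all conditions on 2-colour Agilent mouse arrays, with 1 array for each combination of genotype, day and treatment level. The genotypes are Eng+/- (written end +/- in the array titles; heterozygous for Eng, which encodes endoglin, a co-receptor for Tgf-β and Bmp ligands) and wt, the days are 50 and 90, and the treatment levels are none named, clp and tpa. The sources used here do not say what the days count, what clp and tpa stand for, how the Eng allele was made or how many animals or cultures gave each RNA, and the titles of both wt arrays with no named treatment hold the word pool. The labels call the material E14 embryonic stem cells, whereas the series title speaks of the hair follicle cycle. All values are log2 ratios of the Cy5 to the Cy3 signal after normalisation, or differences between them. Arrays are named below by genotype, treatment and day, as in wt clp 50 d, with no treatment word where none is named.

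White adipocytes take up fatty acids that lipoprotein lipase frees from circulating lipids, make others from glucose by way of citrate, join them to glycerol as triglyceride, and keep this in a droplet coated by perilipins. Lipases release it again when β-adrenergic receptors are stimulated, and the transcription factors Pparg and Cebpa hold the whole programme in place. In mouse skin a layer of such cells lies under the dermis around the hair follicles, and it is known to thicken while follicles grow and to thin while they rest.

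The level of these genes was checked first, because the labels name stem cells. Of the 30 genes, 29 were well above background in Cy5 on all 12 arrays. The exception was Ucp1, the uncoupling protein that marks heat-producing brown and beige fat, which was above background only on the Eng+/- 90 d and wt tpa 50 d arrays. Of 13 embryonic stem cell markers, 6 were above background on all 12 arrays and Zfp42 on 0. In bulk RNA, fewer fat cells and less RNA per fat cell cannot be told apart, in any of the results that follow.

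Many of these genes were too bright for the scanner. In Cy5, 16 of the 30 genes (53.3%) were saturated on at least 1 array, against 6.79% of all features tested. Cfd, the adipocyte protease also called adipsin, and Fabp4, the fatty acid carrier of adipocyte cytoplasm, were saturated on all 12 arrays, so that no fold is given for them. Car3, a carbonic anhydrase abundant in fat and muscle, was saturated on 7 arrays, Cebpb and Dgat2 on 6, and Acly, Cidec and Gpd1 on 5. Lpl, Pnpla2 and Thrsp were saturated on 2 arrays, and Plin4, Adipoq, Slc2a4, Retn and Acaca only on the Eng+/- 90 d array. Saturation was uneven between arrays: 16 of the 30 genes were saturated on Eng+/- 90 d, 10 on Eng+/- tpa 90 d, 7 or 8 on the other tpa arrays, 5 on each wt clp array and 2 on each of the other 5. The median Cy5 signal over all spots followed a similar course, at 502.5 on Eng+/- 90 d, 360 to 492 on the tpa arrays, 446 and 476 on the wt clp arrays and 153 to 236 on the other 5. A saturated value is a lower limit of the sample's signal. In Cy3, Car3 was saturated on 3 arrays and Cfd on 2, and there the ratio is not a lower limit.

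**Figure D1:**
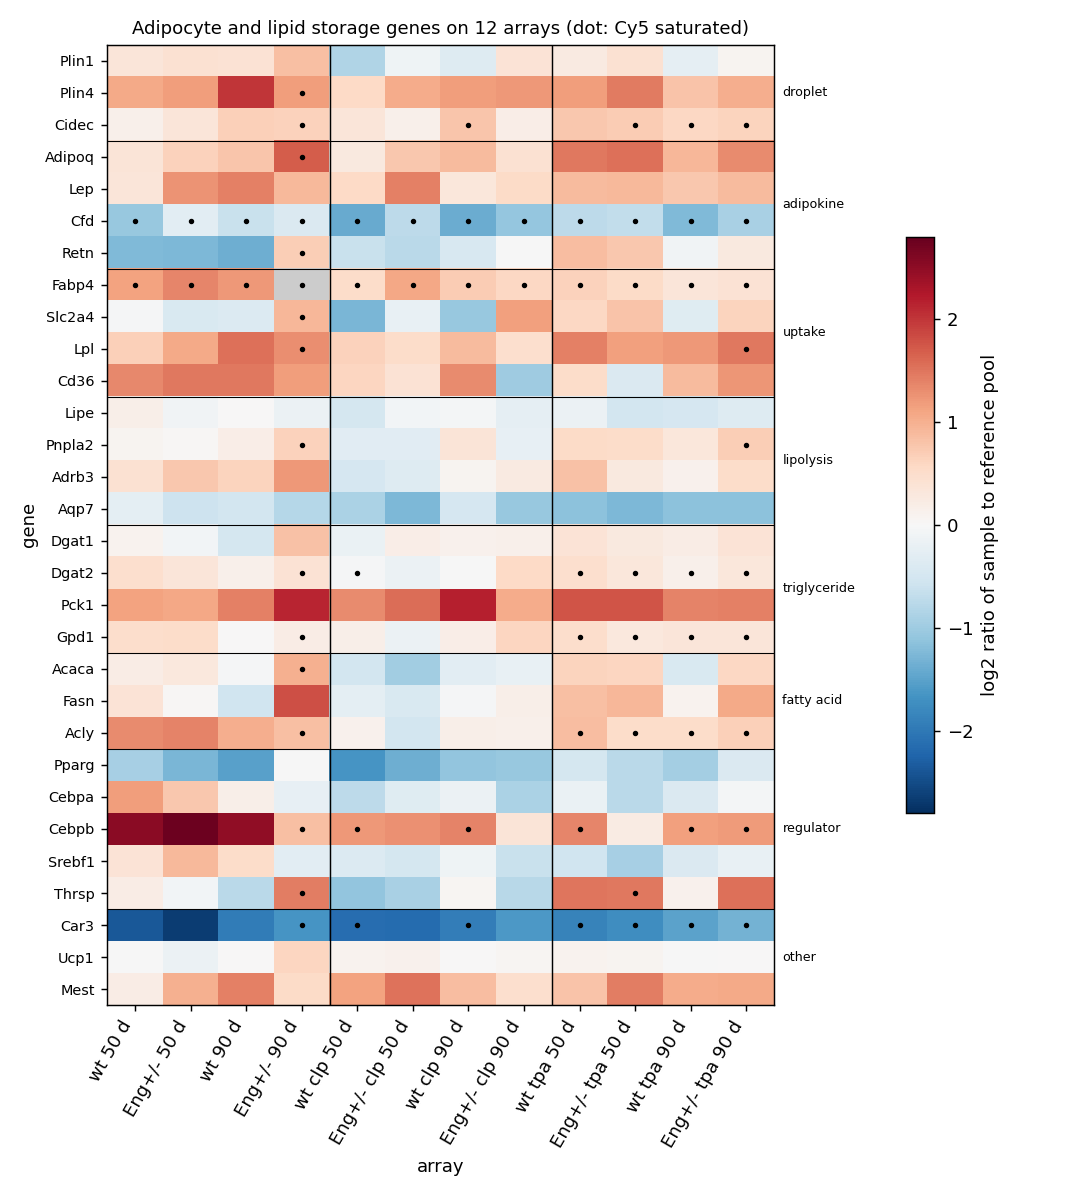
Log2 ratio of sample to reference pool (colour, from blue for lower to red for higher) for the 30 genes (rows, by role) on the 12 arrays (columns, by treatment and day); dots mark spots saturated in Cy5 and grey marks the flagged Fabp4 spot. Dots fill the rows of Cfd and Fabp4, and 16 of the 30 rows have a dot in the Eng+/- 90 d column.

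The promoters of the 4 genes with sequences at hand whose differences passed the test below are shown, from 250 bases before to 50 bases after the gene's start in RefSeq's annotation of the mouse assembly GRCm38.p6, 5′ to 3′ on the gene's own strand. Plin1 lies at chr7:79732727-79733026 (minus strand), Cebpa at chr7:35119043-35119342 (plus strand), Acly at chr11:100527951-100528250 (minus strand) and Thrsp at chr7:97417501-97417800 (minus strand). Capitals mark matches on either strand to 6 motifs: AGGTCA, the core recognised by nuclear receptors such as Pparg; TTGCNNAA, recognised by C/EBP factors; TCACNCCAC, the sterol response element recognised by SREBP factors; CACGTG, an E-box; CCAAT, recognised by NF-Y; and TATAAA, the TATA box.
Plin1: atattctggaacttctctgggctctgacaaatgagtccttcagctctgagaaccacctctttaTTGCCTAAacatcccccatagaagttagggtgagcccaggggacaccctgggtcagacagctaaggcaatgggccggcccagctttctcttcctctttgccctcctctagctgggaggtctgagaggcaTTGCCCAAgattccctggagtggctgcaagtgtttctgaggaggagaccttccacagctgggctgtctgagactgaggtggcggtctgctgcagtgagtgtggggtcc
Cebpa: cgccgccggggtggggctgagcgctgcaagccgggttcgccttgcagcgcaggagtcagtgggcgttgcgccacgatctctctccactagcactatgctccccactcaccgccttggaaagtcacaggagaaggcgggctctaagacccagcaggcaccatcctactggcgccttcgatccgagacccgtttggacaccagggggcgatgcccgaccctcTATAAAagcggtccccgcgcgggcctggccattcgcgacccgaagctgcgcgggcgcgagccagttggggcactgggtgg
Acly: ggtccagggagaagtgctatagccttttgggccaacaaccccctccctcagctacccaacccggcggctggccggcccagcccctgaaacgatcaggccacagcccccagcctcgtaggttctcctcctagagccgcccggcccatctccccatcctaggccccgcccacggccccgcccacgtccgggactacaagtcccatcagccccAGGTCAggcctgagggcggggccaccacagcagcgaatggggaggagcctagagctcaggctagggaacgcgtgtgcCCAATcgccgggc
Thrsp: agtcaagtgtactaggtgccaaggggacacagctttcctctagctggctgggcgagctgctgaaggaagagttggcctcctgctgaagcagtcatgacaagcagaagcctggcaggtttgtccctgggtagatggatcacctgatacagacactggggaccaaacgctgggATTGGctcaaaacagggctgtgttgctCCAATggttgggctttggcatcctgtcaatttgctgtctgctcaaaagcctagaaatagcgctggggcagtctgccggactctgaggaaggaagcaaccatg
The Plin1 window held 2 C/EBP matches, that of Cebpa a TATA box, that of Acly AGGTCA and CCAAT, and that of Thrsp 2 CCAAT matches. RefSeq promoters were at hand for 22 of the 30 genes (31 promoters, since some genes have several starts), and no matches of different motifs overlapped in them. TTGCNNAA was found in 5 of the 31 (16.1%), against 10.8% of all 32851 promoters of that length, and AGGTCA in 7 (22.6%), against 16.3%. CCAAT was found in 10 (32.3% against 37.4%), TATAAA in 3 (9.68% against 13.6%), CACGTG in 1 (3.23% against 7.15%) and TCACNCCAC in 0 (against 1.24%). A match only says that the letters occur in the window.

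The genes varied more between arrays than most. The range from the lowest to the highest log2 ratio had a median of 1.41 over the 29 genes tested, against 0.861 over all features, and 24 of the 29 lay above the latter. The smallest range was that of Cidec (0.636) and the largest that of Thrsp (2.64). This Cidec probe was saturated on 5 arrays, and the other Cidec probe, never saturated, ran from 0.25 to 1.48. The median log2 ratio of the 29 genes was highest on Eng+/- 90 d (0.83), followed by wt tpa 50 d (0.58), Eng+/- tpa 90 d (0.57) and Eng+/- tpa 50 d (0.42). It was lowest on wt clp 50 d (-0.27) and Eng+/- clp 50 d (-0.17), and lay between 0.06 and 0.33 on the other 6 arrays. On wt clp 50 d 9 of the 29 genes had their lowest value, whereas 13.0% of all features did, and on Eng+/- 90 d 8 had their highest, against 8.63% of features. These 8 include Ucp1, which entered the tests only through Eng+/- 90 d and wt tpa 50 d, so that its high value there is no support.

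Hair genes varied far more than fat genes on the same arrays. The median of 21 hair shaft and sheath genes was -6.47 on Eng+/- 90 d, -5.56 on wt tpa 50 d and -4.80 on Eng+/- tpa 50 d. It lay between -1.64 and 0.82 on the other 9 arrays. Among the fat genes, the array with the lowest hair value had the highest median, while the array with the next highest median was also the one with the next lowest hair value. Whether the 2 sets of genes move together beyond these arrays was not tested.

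Some genes, picked out after their values were seen, were high on Eng+/- 90 d and on 3 of the 4 tpa arrays. Thrsp, a nuclear protein of lipogenic tissues that rises with fatty acid synthesis, had log2 ratios of 1.43 on Eng+/- 90 d, 1.51 on wt tpa 50 d, 1.48 on Eng+/- tpa 50 d and 1.54 on Eng+/- tpa 90 d. On the other 8 arrays it lay between -1.10 and 0.21, with no array in between. Fasn, the fatty acid synthase itself, was highest on the same 4 arrays, at 1.81, 0.83, 0.93 and 1.06, and lay between -0.55 and 0.38 on the other 8. Retn, which encodes resistin, a peptide hormone of mouse adipocytes, was at 0.68, 0.86, 0.76 and 0.27 on those 4 arrays and between -1.37 and -0.0047 on the other 8. Adipoq, the gene of the hormone adiponectin, was likewise highest there, at 1.70, 1.48, 1.54 and 1.33, with 0.28 to 0.93 on the other 8. Of these values, Thrsp was saturated on Eng+/- 90 d and Eng+/- tpa 50 d, and Retn and Adipoq on Eng+/- 90 d. The 4 arrays do not form a group of the design, and no test was made on them.

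**Figure D2:**
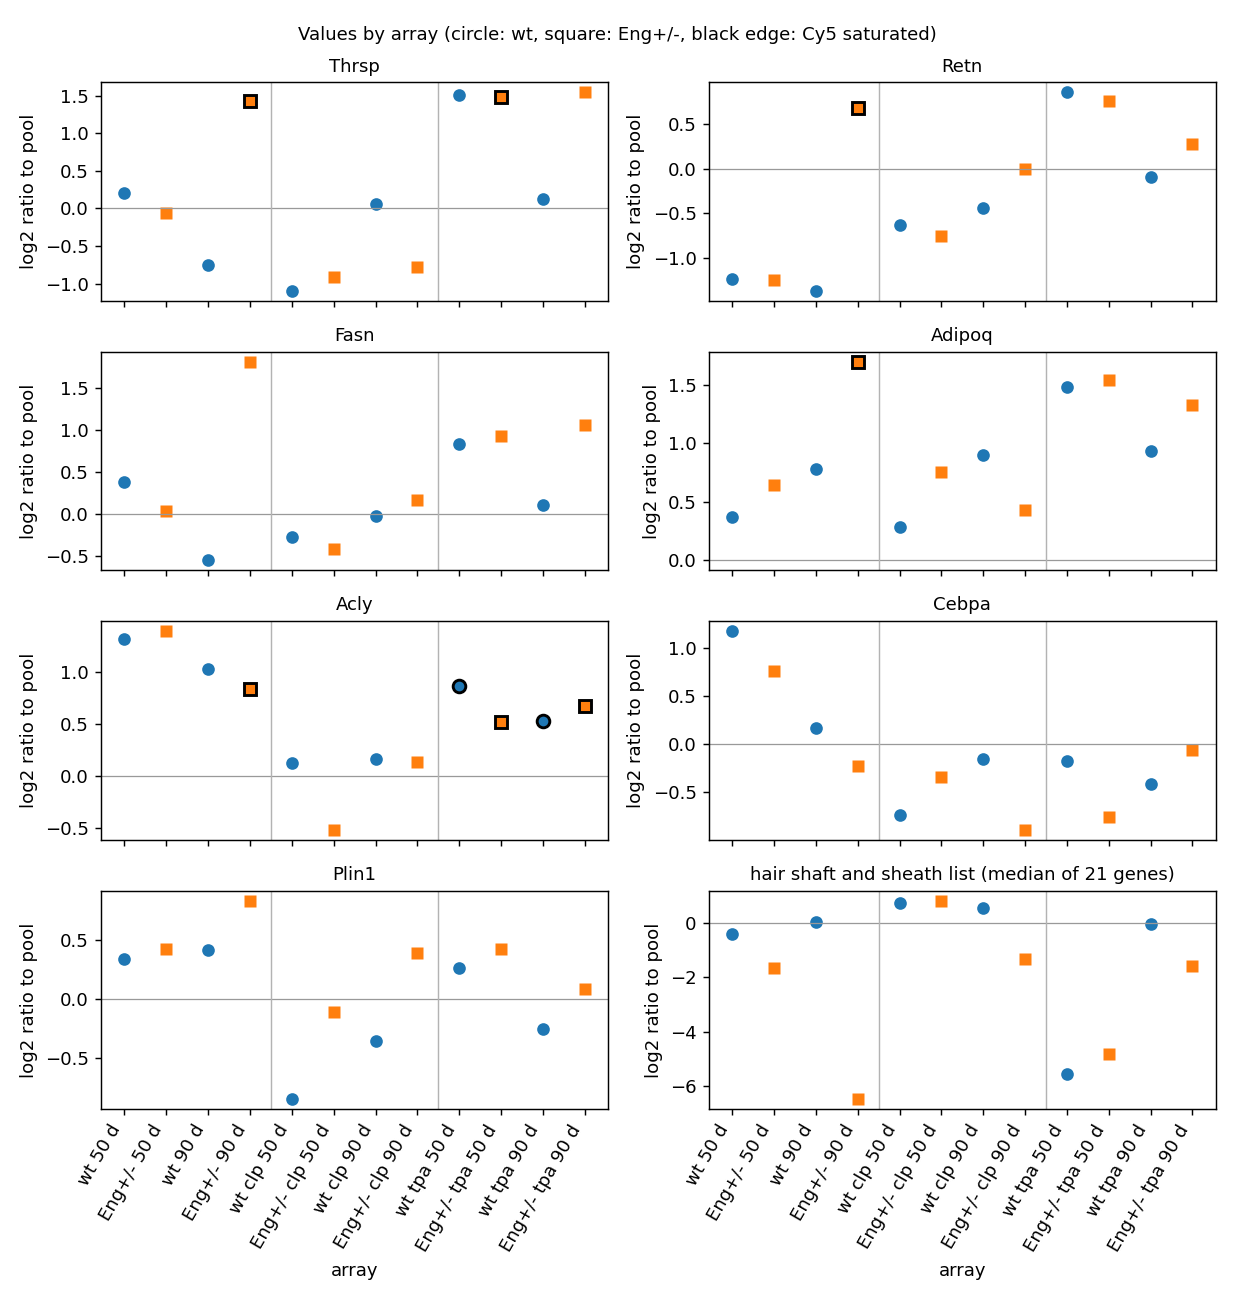
Log2 ratio of sample to pool by array for 7 of the genes and, at the lower right, the median of 21 hair shaft and sheath genes; circles are wt, squares Eng+/-, and a black edge marks a spot saturated in Cy5. Thrsp, Retn, Fasn and Adipoq were high on Eng+/- 90 d and on 3 of the 4 tpa arrays, and Acly was low on the 4 clp arrays.

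The other genes are given by their lowest and highest log2 ratio over the 12 arrays. Among droplet proteins Cidec ran from 0.15 to 0.78 and Plin4 from 0.56 on wt clp 50 d to 2.00 on wt 90 d. Lep, the gene of the satiety hormone leptin, ran from 0.31 on wt clp 90 d to 1.42 on Eng+/- clp 50 d, with no treatment level wholly above another. Lipe, the hormone-sensitive lipase, ran from -0.52 to 0.15, and Pnpla2, which starts triglyceride breakdown, from -0.32 to 0.68. Of the triglyceride genes, Dgat2 ran from -0.17 to 0.55, Gpd1 from -0.17 to 0.60 and Dgat1 more widely, from -0.49 to 0.83. Dgat2 was saturated on 6 arrays, Gpd1 on 5 and Pnpla2 on 2, so that their true ranges are not known. Pck1 ran from 1.04 on Eng+/- clp 90 d to 2.18 on wt clp 90 d, so that both extremes lay within 1 treatment level and day. Mest ran from 0.21 on wt 50 d to 1.51 on Eng+/- clp 50 d.

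Regulators differed among themselves in where they were high. Pparg, the nuclear receptor that starts and keeps up adipocyte gene expression, was highest on Eng+/- 90 d (-0.01) and next on the tpa arrays Eng+/- 90 d (-0.40), wt 50 d (-0.50) and Eng+/- 50 d (-0.76), and lowest on wt clp 50 d (-1.65). Cebpb was instead high on wt 90 d (2.47), Eng+/- 50 d (2.75) and wt 50 d (2.53), with 0.22 to 1.39 on the other 9 arrays, of which 6 were saturated. Srebf1 was high on the same 3 arrays (0.52, 0.91 and 0.38) and between -0.93 and -0.11 on the other 9. Cebpa was highest on wt 50 d (1.18) and Eng+/- 50 d (0.76), followed by wt 90 d (0.17), and lay between -0.89 and -0.06 elsewhere.

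The first comparison of treatment levels is clp against no named treatment (4 arrays against 4, with genotype in the model). Fat and lipid genes tended to be lower with clp, and 4 of the 29 passed the test, all of them lower: Acly, Cebpa, Adrb3 and Plin1. Among all features, 7.77% passed, 3.5% in the lower and 4.27% in the higher direction, so that the share among these genes was 13.8% against 3.5% for lower calls and 0 against 4.27% for higher calls. The 4 clp arrays lay wholly above the 4 others for 0 genes, against 5.29% of features. The difference was below 0 for 25 of the 29 genes, and its median was -0.37 on the log2 scale, against 0.01 for all features; centring each array on its median in place of loess turned it to 0.17, where the median of all features was 0.24. The tests are limma's moderated tests with Benjamini-Hochberg adjustment over all 25085 features, and errors are standard errors of the fit.

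Acly, the ATP citrate lyase that makes acetyl-CoA for lipid synthesis outside mitochondria, was at 1.31, 1.39, 1.03 and 0.84 on the wt 50 d, Eng+/- 50 d, wt 90 d and Eng+/- 90 d arrays, the last of them saturated. With clp it was at 0.13, -0.52, 0.16 and 0.13 in the same order. The groups did not overlap, as for 3 of the 29 genes in the lower direction against 3.98% of all features, and the difference was -1.17 ± 0.18 (adjusted p = 0.0174, lower in 4 of 4 pairs of arrays matched for genotype and day). A second probe of Acly, never saturated, differed by only -0.09, so that the result rests on 1 of 2 probes.

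Cebpa, the C/EBP factor that keeps adipocytes differentiated, was at 1.18, 0.76, 0.17 and -0.23 with no named treatment and at -0.73, -0.34, -0.16 and -0.89 with clp, again for wt 50 d, Eng+/- 50 d, wt 90 d and Eng+/- 90 d. The groups overlapped, since the Eng+/- 90 d array lay within the clp values, and the difference was -0.998 ± 0.22 (adjusted p = 0.0311, lower in 4 of 4 pairs). Adrb3, the β3-adrenergic receptor through which noradrenaline starts lipolysis in mouse fat, was at 0.43, 0.76, 0.63 and 1.21 without and at -0.46, -0.36, 0.08 and 0.24 with clp. Its groups did not overlap, and the difference was -0.88 ± 0.19 (adjusted p = 0.0312, 4 of 4 pairs); its other probe differed by -0.47. Plin1, the perilipin that coats adipocyte droplets and holds back the lipases, was at 0.34, 0.43, 0.42 and 0.83 without and at -0.85, -0.11, -0.36 and 0.39 with clp. The Eng+/- clp 90 d array reached into the range of the other group, and the difference was -0.74 ± 0.16 (adjusted p = 0.0326, 4 of 4 pairs).

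Of the remaining genes of each role, none passed. Among droplet proteins, Plin4 differed by -0.35 ± 0.22 and Cidec, which fuses droplets, by -0.09 ± 0.17, while the other Cidec probe, never saturated, differed by -0.67. Among genes of uptake, Cd36, a fatty acid transporter of the plasma membrane, differed by -1.04 ± 0.38 (adjusted p = 0.121), Lpl, the lipoprotein lipase, by -0.51 ± 0.18 (adjusted p = 0.107) and Slc2a4, the insulin-regulated glucose transporter Glut4, by -0.38 ± 0.36. Cd36 owed much of this to the Eng+/- clp 90 d array, at -1.001, against 0.40 to 1.32 on the other clp arrays and 1.17 to 1.48 with no named treatment. The lipases Lipe and Pnpla2 differed by -0.18 ± 0.15 and -0.37 ± 0.19, and Aqp7, the glycerol channel of fat cells, by -0.38 ± 0.12 (adjusted p = 0.0779). Differences of the triglyceride genes were small: Dgat1 and Dgat2, which add the last fatty acid, differed by -0.02 and -0.25, Gpd1, which makes glycerol phosphate, by -0.11, and Pck1, which feeds glycerol synthesis, by 0.09.

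Acaca, the acetyl-CoA carboxylase that commits carbon to fatty acids, was at 0.21, 0.30, -0.04 and 1.01 without and at -0.51, -0.98, -0.30 and -0.22 with clp, in the array order used above. The groups did not overlap, but the difference of -0.87 ± 0.26 missed the threshold (adjusted p = 0.0707), and the 2 other probes of the gene differed by -0.17 and 0.14. Among regulators, Cebpb, which acts early in adipocyte formation, differed by -1.09 ± 0.32 (adjusted p = 0.0676, saturated on both wt clp arrays and on Eng+/- 90 d), Srebf1, the SREBP factor that drives lipogenic enzymes, by -0.78 ± 0.21 (adjusted p = 0.0539), Thrsp by -0.89 ± 0.44 and Pparg by -0.36 ± 0.28. The adipokine genes were spread around 0, with Lep, the leptin gene, at -0.27, Adipoq at -0.28 and Retn at 0.34. Mest, an imprinted gene linked to fat expansion in mice, differed by 0.21 ± 0.26, Fasn by -0.56 ± 0.39, Car3, saturated on both wt clp arrays, by 0.19 ± 0.17 and Ucp1 by -0.04 ± 0.11. Both arrays of 90 d with no named treatment moved several of these: without Eng+/- 90 d and without wt 90 d in turn, Fasn was at -0.0067 and -1.11, Pparg at 0.0035 and -0.73, Retn at 0.82 and -0.15, Pck1 at 0.32 and -0.14, Dgat1 at 0.29 and -0.33, Mest at -0.08 and 0.50, and Ucp1 at 0.11 and -0.19.

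Single arrays decided how many of the 29 genes passed for clp. Without wt clp 50 d or wt clp 90 d 0 passed, against 0.012% and 0.0678% of all features, and without Eng+/- 50 d or Eng+/- clp 50 d 1 did, against 2.34% and 1.6%. Without wt 50 d, Eng+/- clp 90 d or any of the 4 tpa arrays 2 passed, against 3.05% to 5.84%. Without wt 90 d 5 passed, against 6.25%: Acly, Adrb3, Plin1, Acaca (-1.10 ± 0.25) and Fasn (-1.11 ± 0.23). Without Eng+/- 90 d 8 did, among them Retn in the higher direction (0.82 ± 0.17, adjusted p = 0.0146), where 18% of all features passed. Acly passed in all but the first 2 of these fits, in which it was at -1.31 and -1.12 (adjusted p = 0.0631 and 0.0645). Cebpa failed without 9 of the 12 arrays (all but Eng+/- 90 d and both tpa 90 d arrays), at -0.81 to -1.18 with adjusted p up to 0.121. Adrb3 failed without 8 (all but both arrays of 90 d with no named treatment and both of tpa 50 d), with adjusted p up to 0.108, and Plin1 without 9 (all but those of 90 d with no named treatment and Eng+/- clp 90 d), with adjusted p up to 0.133. Each difference was below 0 in each of the 12 fits. The 4 tpa arrays do not enter these differences, so that leaving 1 of them out changes only the error. A call kept in those fits is therefore no support for it. Under median centring none of the 4 passed, with differences of -0.39 for Acly, -0.50 for Cebpa, -0.29 for Adrb3 and -0.17 for Plin1 where the median of all features was 0.24. Each slide holds the 4 arrays of 1 treatment level, so that treatment level and slide cannot be told apart.

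Genes of the same processes outside the 30 were followed in 8 lists. Of 12 other droplet genes 3 fell with clp: Cidea (-1.42 ± 0.24), Cav1, the caveolin of the adipocyte membrane (-1.34 ± 0.32), and Plin5 (-0.62 ± 0.16). Of 10 other genes of fatty acid synthesis, Acss2, which makes acetyl-CoA from acetate (-1.47 ± 0.26), Scd1, the stearoyl-CoA desaturase (-1.44 ± 0.33), and Acacb (-1.44 ± 0.35) fell, and Fads2, a desaturase of polyunsaturated fatty acids, rose (1.27 ± 0.33). Of 16 other adipocyte genes 3 fell: Pde3b, which carries the antilipolytic signal of insulin (-0.87 ± 0.13), Irs1, a substrate of the insulin receptor (-1.11 ± 0.22), and Acvr1c (-0.79 ± 0.18). Of 10 genes of uptake and lipolysis 1 fell, the fatty acid transporter Slc27a1 (-1.43 ± 0.17), and of 12 adipogenic regulators Cebpd (-0.69 ± 0.16) and Stat5b (-1.16 ± 0.23) fell. Of 8 triglyceride genes Lpin3 rose (1.22 ± 0.22) and 0 fell, and of 10 genes of thermogenic fat 0 passed. Of 12 genes of fat cell precursors 3 fell, Zfp521 (-1.32 ± 0.23), Pdgfrb (-1.27 ± 0.27) and Pi16 (-1.46 ± 0.36). The medians of these 8 lists lay between -0.46 and -0.16. Among all features 3.5% passed in the lower and 4.27% in the higher direction. Of the genes that fell, Cidea, Cav1, Plin5, Acacb and Stat5b were each higher with clp in 1 of 4 matched pairs. Slc27a1, Scd1, Acss2 and Cebpd were lower in 4 of 4.

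Markers of other cell types moved with clp as well. Of 11 macrophage markers 7 passed, all lower (median -1.22), and their median on an array was -1.19 to -0.42 with clp and 0.16 to 0.77 with no named treatment. Of 11 fibroblast markers 6 passed, all lower (median -0.97), with array medians of -0.94 to -0.10 against 0.14 to 0.70. Of 11 sebaceous markers 3 were lower, of 11 epidermis markers 2 (Krt77 by -1.60 ± 0.19 and Casp14 by -1.11 ± 0.27) and of 21 hair genes 3 were higher (median 2.10), while 0 of 16 skeletal muscle markers and 0 of 11 endothelial markers passed. No marker in these lists was below background on all 12 arrays. Their part in the lower fat genes was not tested.

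The second comparison, tpa against no named treatment, uses the same arrays with no named treatment as the first. No gene of the 29 passed (limma, 0 called, 9 at an unadjusted p under 0.05, against 0.132% of all features called, 0.0279% higher and 0.104% lower, and 26.0% at an unadjusted p under 0.05). The median difference was -0.02, with 14 genes above 0, and median centring moved it to 0.65, where the median of all features was 0.34. With probes saturated on any array left out, 18 genes remained. Their median was -0.34, where that of all features was -0.00031. Of the 33 features called, 21.2% were higher with tpa, against 83.6% of 1037 under median centring and 58.9% of 431 in Cy5 alone.

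The smallest adjusted p among these genes was that of Aqp7. It was at -0.28, -0.59, -0.51 and -0.80 on the wt 50 d, Eng+/- 50 d, wt 90 d and Eng+/- 90 d arrays and at -1.14, -1.26, -1.16 and -1.15 on the tpa arrays in that order. The groups did not overlap (1 gene in the lower direction, against 6.61% of features, and 0 in the higher, against 4.56%), and the difference was -0.63 ± 0.12 (adjusted p = 0.0605, lower in 4 of 4 pairs). Retn was at -1.23, -1.25, -1.37 and 0.68 with no named treatment and at 0.86, 0.76, -0.10 and 0.27 with tpa, so that only the saturated Eng+/- 90 d array of the former reached the tpa values. Retn differed by 1.24 ± 0.33, with tpa above no named treatment in 3 of 4 pairs (adjusted p = 0.0883). Srebf1 differed by -0.90 ± 0.21 (adjusted p = 0.0771), Cebpa by -0.82 ± 0.22 (adjusted p = 0.0866), Cebpb by -1.17 ± 0.32 (adjusted p = 0.0903) and Thrsp by 0.96 ± 0.44 (adjusted p = 0.204, higher in 4 of 4 pairs). Thrsp was saturated on Eng+/- 90 d (1.43) and not on Eng+/- tpa 90 d (1.54), so that the direction of that pair is not sure. Cebpb was saturated on 3 of the 4 tpa arrays and on Eng+/- 90 d, so that neither the size nor the direction of its difference is sure. In the 8 lists of related genes and among the markers of other cell types 0 genes passed. Car3, Gpd1, Acly and Dgat2 were saturated on all 4 tpa arrays and on Eng+/- 90 d, so that neither a fold nor a bound is given for them.

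This count turned on the Eng+/- 90 d array. Without it 11 of the 29 genes passed, against 19.8% of all features, and without any other array 0 did, against 0 to 1.25% of features. Then 6 genes had higher ratios with tpa: Retn (1.73 ± 0.17), Thrsp (1.48 ± 0.35), Fasn (0.86 ± 0.23), Pparg (0.65 ± 0.19), Dgat1 (0.53 ± 0.15) and Car3. Car3 was saturated in Cy5 on all 4 tpa arrays and in Cy3 on 3 arrays, so that neither the size nor the direction of its difference is sure. The other 5 had lower ratios: Srebf1 (-1.10 ± 0.21), Cebpa (-0.87 ± 0.24), Aqp7 (-0.64 ± 0.14), Plin4 (-0.50 ± 0.15) and Cebpb, whose ratios with tpa are lower limits on 3 of 4 arrays, so that its direction is not sure. The adjusted p of the 11 ran from 0.00174 to 0.0471.

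**Figure D3:**
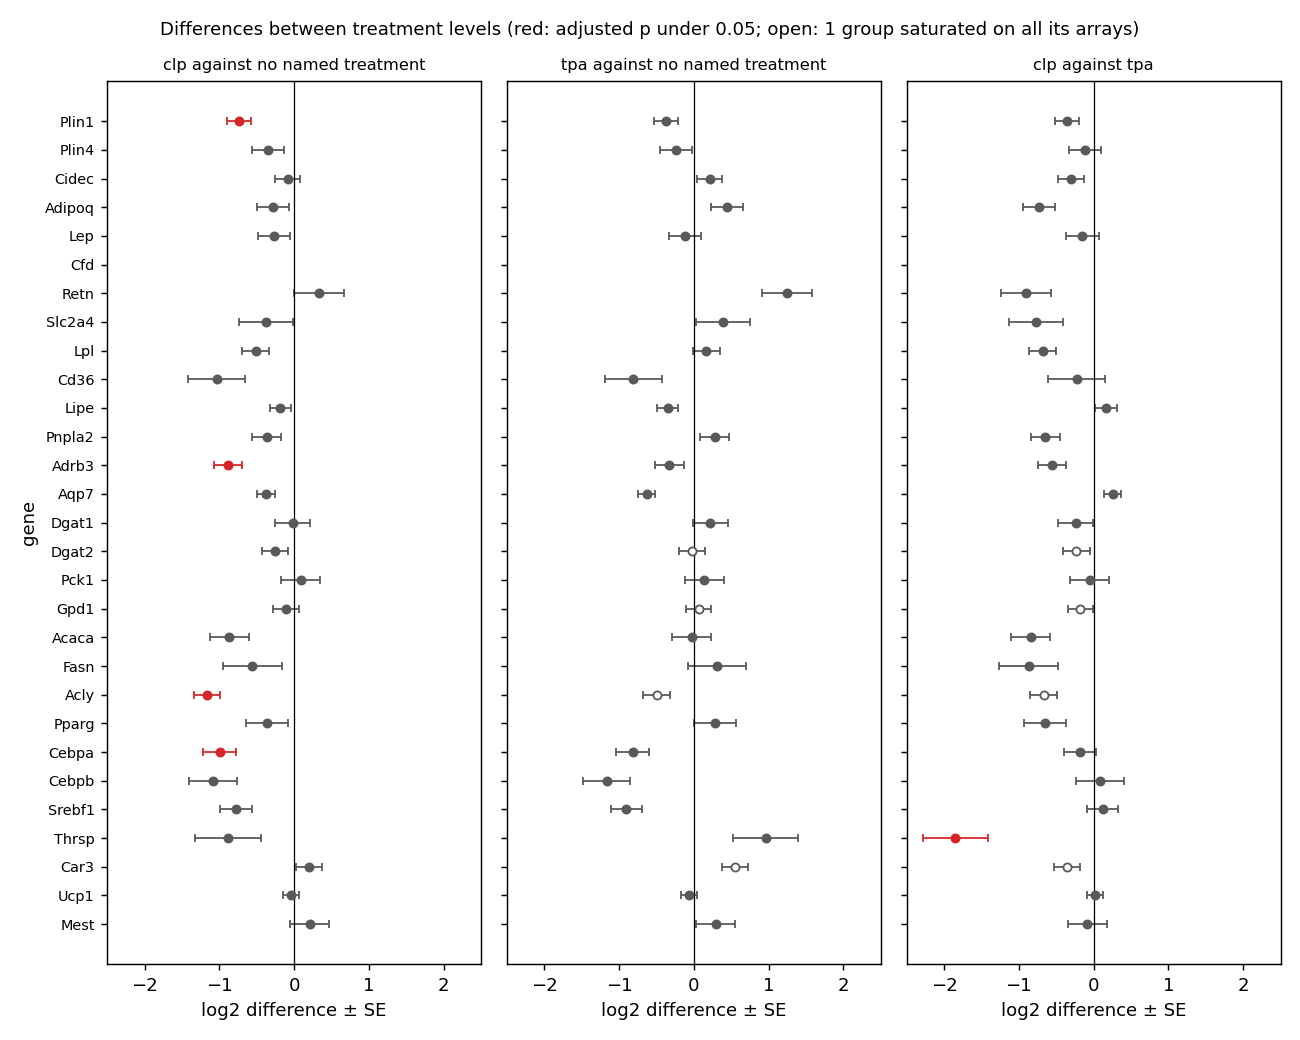
Log2 difference between treatment levels with its standard error for each gene, as fitted over 12 arrays; red points passed an adjusted p of 0.05, open points have 1 group saturated on all its arrays, and Cfd, saturated throughout, is not drawn. Red points are Plin1, Adrb3, Acly and Cebpa on the left, none in the middle and Thrsp on the right.

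The third comparison sets clp against tpa, and shares its arrays with the other comparisons. Thrsp passed, at 1.51, 1.48, 0.13 and 1.54 on the wt 50 d, Eng+/- 50 d, wt 90 d and Eng+/- 90 d arrays of tpa and at -1.10, -0.91, 0.06 and -0.78 on those of clp. The groups did not overlap, although the wt 90 d arrays of the 2 treatments lay close to each other, and the difference was -1.85 ± 0.44 (adjusted p = 0.0368, lower with clp in 4 of 4 pairs). It was the only call among the 29 genes (3.45%), against 8.18% of all features, 4.55% in the lower and 3.62% in the higher direction. The difference was below 0 for 24 of the 29 genes with a median of -0.27, against 0.05 for all features.

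For 6 genes the 4 clp arrays lay wholly below the 4 tpa arrays, against 7.97% of all features (20.7% of the 29): Thrsp, Adipoq, Pparg, Dgat1, Lpl and Acly. The reverse held for 0 genes, against 8.24%. Adipoq was at 0.28, 0.75, 0.90 and 0.43 with clp and at 1.48, 1.54, 0.93 and 1.33 with tpa (difference -0.73 ± 0.22, adjusted p = 0.0705). Lpl was at 0.65, 0.52, 0.89 and 0.46 against 1.40, 1.14, 1.22 and 1.47 (difference -0.68 ± 0.18, adjusted p = 0.0508), with saturation on Eng+/- tpa 90 d. The other Lpl probe, never saturated, differed by only -0.30. Its groups overlapped, at -0.42, 0.25, -0.22 and -0.13 with clp and 0.28, 0.30, -0.28 and 0.38 with tpa. In Pparg the difference was -0.65 ± 0.28 (adjusted p = 0.192) and in Dgat1 -0.24 ± 0.23 (adjusted p = 0.557). Acly and Gpd1, saturated on all 4 tpa arrays and on 0 clp arrays, have a bound only: Acly was at least 1.39-fold brighter with tpa (adjusted p = 0.0517) and Gpd1 at least 1.24-fold (adjusted p = 0.556). Car3 and Dgat2 were also saturated on some clp arrays and have no bound. The other Acly probe differed the opposite way, by 0.47.

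The Thrsp call was lost without any of the 4 clp or 4 tpa arrays, at -1.46 to -2.23 with adjusted p from 0.0601 to 0.172, and the number of the 29 genes that passed was then 0, or 1 without Eng+/- tpa 50 d, where Adrb3 passed. These fits called 0.809% to 5.46% of all features. Thrsp was kept without each of the 4 arrays with no named treatment. That is no support for the call, because these arrays do not enter the difference. It stays at -1.85 without them, and only its error changes. Without either of those of 50 d Thrsp and Lpl passed, against 9.37% of features, and without either of those of 90 d 9 did, against 11.8% of all features: Thrsp, Retn (-0.91 ± 0.15), Fasn (-0.87 ± 0.20), Acaca (-0.84 ± 0.22), Adipoq, Lpl, Acly, Pparg and Pnpla2 (-0.65 ± 0.16), all lower with clp. The 2 other Acaca probes, never saturated, differed the opposite way over all 12 arrays, by 0.20 and 0.39. Among related genes, 2 of 12 droplet genes fell, Plin2 (-1.28 ± 0.30) and Cidea (-1.20 ± 0.24). Of 10 genes of fatty acid synthesis Acss2 (-1.38 ± 0.26) and Elovl6, which elongates palmitate (-1.37 ± 0.26), were lower and Fads2 (2.52 ± 0.33) was higher. Cebpd (-1.16 ± 0.16) and Ebf2 (-0.69 ± 0.15) were lower among 12 regulators, and Rarres2, the chemerin gene (-1.26 ± 0.26), and Pde3b (-0.56 ± 0.13) among 16 adipocyte genes. Lpin3 was higher (1.30 ± 0.22) and Mogat2 lower (-0.56 ± 0.10) among 8 triglyceride genes, Pdgfra was lower (-0.95 ± 0.18) among 12 precursor genes, and 0 passed among the lists of uptake and lipolysis and of thermogenic fat. Of 11 macrophage markers 8 were lower (median -1.77), of 11 fibroblast markers 5 were lower (median -0.79) and of 21 hair genes 6 were higher (median 3.37); their part was not tested.

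Genotype was compared over 6 pairs of arrays matched for treatment and day. Eng itself was lower on the Eng+/- array in 5 of the 6 pairs, and higher by 0.63 in the tpa 50 d pair (fit -0.77 ± 0.26, adjusted p = 0.331). No fat gene of the 29 passed (limma, 0 called among 25085 features, 4 of the 29 and 3336 of all features at an unadjusted p under 0.05), and their median difference was 0.09, against -0.01 for all features. The 4 were Plin1, Slc2a4, Aqp7 and Cfd, the last of them saturated throughout.

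Plin1 was higher on the Eng+/- array in all 6 pairs, by 0.09 at 50 d and 0.42 at 90 d where no treatment is named, by 0.74 and 0.75 under clp, and by 0.16 and 0.33 under tpa. The difference was 0.42 ± 0.13 (adjusted p = 0.316). Slc2a4 was higher in 5 of 6 pairs, by 1.06 (50 d) and 2.20 (90 d) under clp, by 0.20 and 0.96 under tpa and by 1.31 at 90 d where no treatment is named, while the pair of 50 d differed by -0.40 (fit 0.89 ± 0.29, adjusted p = 0.325). Skeletal muscle also expresses Slc2a4, and 16 of 16 muscle markers had a difference above 0 (median 0.64, 0 passed). On the wt clp arrays of 50 d and 90 d Slc2a4 was at -1.27 and -1.06 and the muscle median at -0.83 and -0.61, whereas on Eng+/- clp 90 d they were at 1.14 and 0.86. On other arrays the 2 differed. The muscle median was 0.92 on wt 50 d, 0.62 on Eng+/- 50 d and 0.60 on Eng+/- clp 50 d, where Slc2a4 was at -0.02, -0.42 and -0.22. The hair genes moved too, with 21 of 21 below 0 in Eng+/- (median -1.62, 0 passed). The part of muscle in the Slc2a4 values was not tested. Aqp7 was lower in 5 of 6 pairs (-0.28 ± 0.09, adjusted p = 0.331), and Cebpb, saturated on 6 arrays, was lower in 3 and higher in 3 (-0.58 ± 0.26, adjusted p = 0.384).

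The pair of 90 d with no named treatment held the most genes past 2-fold (8). There 7 of the 29 genes were at least 2-fold higher on the Eng+/- array, against 5.49% of all features: Fasn by 2.36 on the log2 scale, Thrsp by 2.19, Retn by 2.05, Pparg by 1.51, Dgat1 and Slc2a4 by 1.31 each and Acaca by 1.04. Of these, Thrsp, Retn, Slc2a4 and Acaca were saturated on that array, so that the Cy5 signals give at least 3.06-fold, 3.05-fold, 2.25-fold and 1.89-fold. Cebpb had a lower ratio there (-1.62), against 4.35% of features at least 2-fold lower, but was saturated too. The Acaca difference rests on its brightest probe. In the same pair its other probes, never saturated, were at -0.95 and -1.64 on the Eng+/- array and at -0.79 and -1.97 on the wt array. In the tpa pair of 90 d all 29 genes had a difference above 0, against 57.1% of all features, with a median of 0.22, although 7 of them were saturated on both arrays of that pair (Cfd, Cebpb, Car3, Cidec, Dgat2, Acly and Gpd1). Only Thrsp, at 1.42, was past 2-fold there, against 0.183% of features, and several were close to 0, such as Aqp7 and Pck1 at 0.01. These differences are those of the brightest probe of each gene. The other probe of Cidec (0.49 on Eng+/-, 0.63 on wt) and that of Adrb3 (-0.13 and -0.08) were lower on the Eng+/- array. The remaining further probes of these genes were higher. In the clp pair of 90 d Slc2a4 was the only gene at least 2-fold higher (2.20, against 2.06% of features), while Cd36 (-2.32), Pck1 (-1.14) and Cebpb (-1.03) were at least 2-fold lower, against 4.91%. Each of these pairs is 1 array against 1 and has no test.

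**Figure D4:**
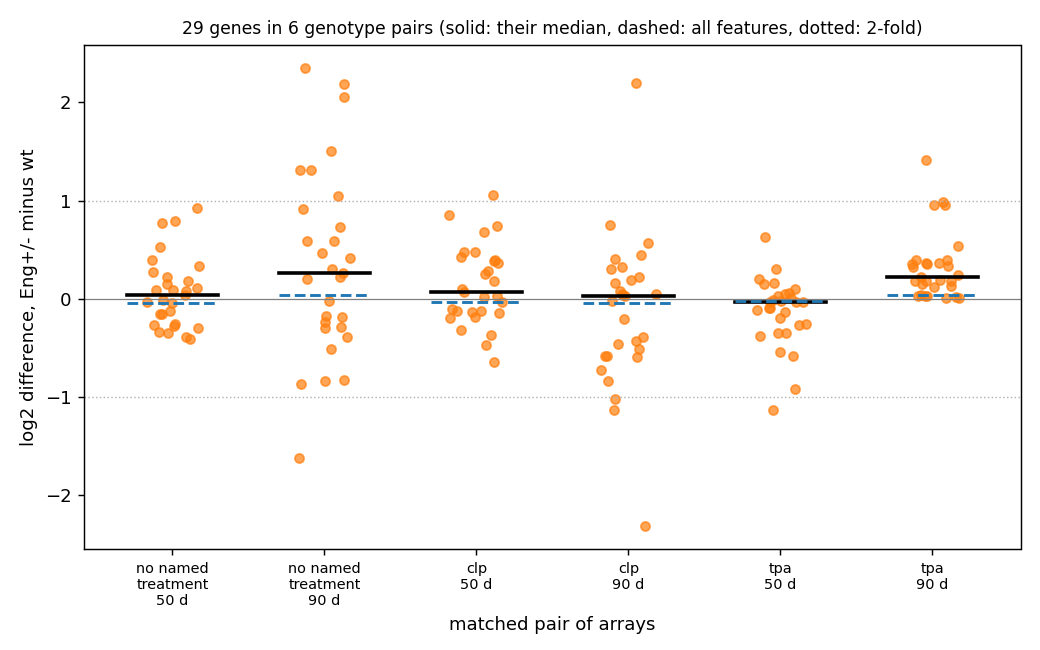
Log2 difference between the Eng+/- and the wt array of each of the 6 matched pairs; points are the 29 genes tested, the solid bar is their median, the dashed bar the median of all features, and dotted lines mark 2-fold. The pair of 90 d with no named treatment has 7 points above the upper dotted line, and in the tpa pair of 90 d all 29 lie above 0. Each gene is drawn by its brightest probe.

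In the pairs of 50 d fewer genes passed 2-fold. With no named treatment at 50 d the median was 0.03 and 0 genes were past 2-fold (against 0.506% of features higher and 4.05% lower). With clp Slc2a4 alone was (1.06, against 1.30% higher), and with tpa Cebpb alone was (-1.14, against 0.231% lower). The interaction of genotype and day was tested in a model with all 2-way interactions: 0 of the 29 genes and 0 of all features passed (5 of the 29 and 899 of all features at an unadjusted p under 0.05). The largest estimates were those of Fasn (1.30 ± 0.47, adjusted p = 0.984) and Slc2a4 (1.20 ± 0.32, adjusted p = 0.855), both higher at 90 d. With any of the 4 clp arrays left out, Fasn (adjusted p = 0.0441) and Thrsp (adjusted p = 0.0457) passed, where 1.71% of all features did and 1 residual degree of freedom remained. All 4 of these fits gave the same values, so that they count as 1 result and not as 4. With any other array left out 0 of the 29 passed, against 0.287% or 0.51% of features. The interaction of genotype and treatment gave 0 calls in the 29 genes and in all features (1 and 655 at an unadjusted p under 0.05).

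Days were compared within each treatment level, 2 arrays against 2. No gene passed in any of the 3 comparisons by limma, and no feature did. With no named treatment 4 of the 29 genes and 1377 of all features had an unadjusted p under 0.05, with clp 0 and 3166, and with tpa 0 and 1445. With no named treatment Cebpa was at 1.18 and 0.76 at 50 d and at 0.17 and -0.23 at 90 d, for wt and Eng+/- in turn, with no overlap (difference -0.9999 ± 0.30, adjusted p = 0.836). Adipoq was at 0.37 and 0.65 at 50 d and at 0.78 and 1.70 at 90 d (0.73 ± 0.30, same adjusted p). Both Adipoq and Car3 were saturated on Eng+/- 90 d. Car3 (0.72 ± 0.24) and Ucp1 (0.38 ± 0.15) were the other 2 genes with an unadjusted p under 0.05, and Ucp1 was above background on Eng+/- 90 d alone among these arrays. The median of the 29 genes was 0.32 at 90 d against 50 d with no named treatment, and without the Eng+/- 90 d array it was -0.04. Without wt 90 d, Retn (adjusted p = 0.0346) and Ucp1 (adjusted p = 0.0359) passed, against 1.05% of all features. In that fit Eng+/- 90 d is the only 90 d array with no named treatment, and it is 1 of the 2 arrays through which Ucp1 entered the tests, so that this Ucp1 call is no support for a difference.

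With clp the median difference between the days was also 0.32, with 23 of 29 genes above 0, and it was 0.01 without wt clp 90 d. Slc2a4 differed most (0.78 ± 0.51, adjusted p = 0.546), followed in size by Mest in the other direction (-0.65 ± 0.36, adjusted p = 0.483). With tpa the median was -0.08, and the largest difference was that of Cd36 (1.00 ± 0.54, adjusted p = 0.947). The hair genes moved far more between the tpa arrays of the 2 days, by a median of 4.76, all 21 above 0 and 0 passing. The interaction of day and treatment gave 0 calls in the 29 genes and in all features (2 and 3420 at an unadjusted p under 0.05); without wt 90 d Retn passed (adjusted p = 0.0328, against 0.861% of features).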

How the data were processed

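Each array measured the Cy5-labelled RNA of 1 sample against a Cy3-labelled pool of all conditions, per the labels, in 1 dye orientation. The series text differs: it speaks of dye swaps and of wt RNA in Cy3. The labels were followed; the median correlation of an array's Cy3 signals with those of the other arrays was 0.985 to 0.994. The deposited scanner files hold foreground and background intensity, and other columns flag spots that were saturated, uneven or above background; they were made with Agilent Feature Extraction 10.7.3.1 per the file headers and 10.0 per the submitters' processing notes. The deposited value table holds log10 ratios of Cy5 to Cy3 identical to those in the scanner output (largest difference 0), with column medians of 0, and was not used further.

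Median foreground and background intensities were read in R 4.3.3 (package data.table, version 1.17.8). Background was corrected by normexp (offset 50) and each array was normalised by loess, both in limma 3.58.1. Control spots had weight 0 and outlier-flagged spots were left out, saturated spots were kept, and spots of a probe were averaged. Probes had to be well above background in Cy5 on at least 2 of 12 arrays (30498 probes; 975 others were left out for an outlier flag). Accessions were named through a RefSeq table, 17167 of 25085 features received a symbol, and the brightest probe stood for each gene. The files use the mouse build mm9, so no gene coordinates of the other build are given with their values.

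The model held genotype and the 6 treatment-by-day conditions (residual degrees of freedom 5, prior 4.16), and a second model held all 2-way interactions (residual degrees of freedom 2). With 1 array per group, spread is what these terms leave unexplained, and may be technical. How precise a value is depends on how few arrays there are. Correlations of log2 ratios between arrays ran from 0.58 to 0.97. The genes and lists were chosen with earlier results of these data known; all 30 genes are described whatever their values, and of each related list at most 4 genes that passed, with the smallest adjusted p. Alternatives were the processed signals, median centring, Cy5 alone, Aquantile, 2 other filters on dim probes, 2 ways to avoid saturated probes, an additive model and leaving out arrays.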

Additional observations from a re-analysis of the deposited data

How the results depend on the processing

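Counts and medians are given in the order in which the main values stand in brackets. With the processed signals, 4098 features (1948) and 7 fat genes (4) passed for clp, 0 features for tpa (33) and 13 for genotype by day (0). Median centring gave, for genotype, 222 features (0) and a median of 0.24 (0.09); for clp 0 fat genes and a median of 0.17 (-0.37), with 88.7% of calls higher (54.9%); for tpa 1037 features, 2 fat genes (0) and a median of 0.65 (-0.02); for clp against tpa 0 fat genes (1). It also gave day medians of 0.75 with no named treatment (0.32) and -0.37 with tpa (-0.08), 245 features for day with tpa (0), 313 for day by treatment (0), 147 for genotype by day, and 10641 features with 19 fat genes for genotype by treatment (0 and 0). Cy5 alone gave 6189 features and 11 fat genes for clp, 431 features for tpa, 5 fat genes for clp against tpa and 30 features for genotype by day. The filter on both channels gave 21 features for tpa and 35 for genotype by day. Leaving out saturated probes (18 fat genes remained) gave 80 features for tpa, 0 fat genes for clp against tpa and day medians of 0.10 where no treatment is named and 0.14 under clp. The tpa median was then -0.34 (-0.02). The additive model gave 733 features and 1 fat gene for clp, 2 features for tpa, and 501 features (2051) and 0 fat genes for clp against tpa. Without wt 50 d and wt clp 90 d, left out because earlier work on these data set their Cy3 apart (here it was lower in correlation for wt 50 d alone, 0.985), 8 features and 0 fat genes passed for clp, 10 features for tpa, 331 features and 0 fat genes for clp against tpa, 7 features for day where no treatment is named, 1 for day under clp, and 5 for day by treatment, and the clp day median was -0.017 (0.32); the genotype interactions could not be fitted there.

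Of 28 differences followed under each alternative, 3 changed sign: Aqp7 between days with clp (-0.11 with processed signals, -0.065 in Cy5 alone), Ucp1 between days with no named treatment (-0.071 under median centring) and Acly for clp against tpa (0.47 with the probe never saturated, and with saturated probes left out). The causes were not tested. With single arrays left out, 3 to 4506 features and 0 to 8 fat genes passed for clp, 0 to 4966 and 0 to 11 for tpa, 203 to 2969 and 0 to 9 for clp against tpa, 0 to 263 and 0 to 2 for day with no named treatment (median -0.044 to 0.44), 0 to 57 features for day with clp (median 0.0066 to 0.32), 0 to 55 for day with tpa, 0 to 216 and 0 to 1 for day by treatment, 72 to 429 and 0 to 2 for genotype by day, and 2 to 275 features for genotype by treatment. No paired analysis was possible because the labels give no replicate numbers to serve as a block; the genotype comparison is matched for treatment and day by the model itself. Saturation limits the bright genes and the number of arrays the rest.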
